A study of Mus musculus with 12 samples.

Results

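The collagen genes of mouse subcutaneous white adipose tissue (scWAT) are described here across cold exposure and across loss of the demethylase activity of JMJD1A. They were taken as every protein-coding gene whose symbol is Col, a number, the letter a and a number, which gave 44 of the 55401 genes counted. By class these are 11 fibrillar collagens, 6 type IV collagens of basement membranes, 6 type VI collagens, 9 collagens associated with fibrils (FACIT), 2 multiplexins, 3 short-chain collagens of networks, 4 transmembrane collagens and 3 others (Col7a1, Col26a1 and Col28a1).

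RNA-seq was performed on scWAT of female mice aged 16 weeks at the start, in 12 libraries from 4 groups of 3. Wild-type (Jmjd1a +/+) and Jmjd1a HY/HY mice were held at 30°C, which is thermoneutral for mice, or at 8°C for 1 week, after all had been kept at 30°C for 1 week in single cages. The HY allele is a histidine-to-tyrosine knock-in made with CRISPR in C57BL/6J eggs that removes the demethylase activity of JMJD1A in every tissue, and the HY/HY females came from 1 founder line. The labels do not tie a replicate number to a litter or a batch, so p-values measure the spread between these libraries.

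Collagens are trimers of chains that wind around one another. Fibrillar collagens bear tension in the matrix around adipocytes, type IV collagen forms the sheet-like network of the basement membrane that coats each adipocyte and vessel, and type VI collagen links the sheets to the fibrils. Fibroblasts, endothelial cells, mural cells and adipocytes all make collagens, and remodelling of scWAT in the cold brings new vessels and new thermogenic adipocytes.

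The libraries held 13592629 to 26352081 counts on the sense strand of genes, and collagen genes took 0.313% to 0.793% of them. Levels are given as CPM, the reads of a gene scaled to library size with TMM factors. White adipocyte markers (8 of 8 detected) summed to between 22567 and 51082 CPM. Skeletal muscle markers stood apart in wild-type 30°C replicate 2, at 1298 CPM against 3.86 to 23.2 in the other libraries, with epidermal markers at 111 CPM against 3.35 to 5.90. Markers of mammary epithelium ranged from 904 CPM in HY/HY 30°C replicate 3 to 5780 in wild-type 30°C replicate 2. In bulk tissue, fewer cells of a type and less RNA per cell cannot be told apart.

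The promoters of the genes on which the results turn are shown first, from 250 bases before to 50 after a RefSeq transcript start (build GRCm38.p6, read along the gene's strand). Capitals mark 3 motifs found on either strand, namely the CCAAT box (CCAAT), the TATA box (TATAAA) and the GC box (GGGCGG), which do not overlap one another in these sequences. Col4a1 and Col4a2 lie head to head on chromosome 8, and their windows, at chr8:11312777-11313076 on the minus strand and chr8:11312555-11312854 on the plus strand, share 78 bases. Col27a1 is at chr4:63215162-63215461, Col15a1 at chr4:47207762-47208061, Col10a1 at chr10:34389731-34390030 and Col11a2 at chr17:34038888-34039187, all on the plus strand, and Col5a3 is at chr9:20815018-20815317 on the minus strand.
Col4a1: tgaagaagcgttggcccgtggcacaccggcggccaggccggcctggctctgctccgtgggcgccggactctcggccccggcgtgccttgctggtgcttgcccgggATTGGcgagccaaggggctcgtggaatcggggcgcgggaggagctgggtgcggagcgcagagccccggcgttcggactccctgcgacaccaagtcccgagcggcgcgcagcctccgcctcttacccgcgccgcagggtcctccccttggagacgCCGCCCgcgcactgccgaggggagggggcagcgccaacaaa
Col4a2: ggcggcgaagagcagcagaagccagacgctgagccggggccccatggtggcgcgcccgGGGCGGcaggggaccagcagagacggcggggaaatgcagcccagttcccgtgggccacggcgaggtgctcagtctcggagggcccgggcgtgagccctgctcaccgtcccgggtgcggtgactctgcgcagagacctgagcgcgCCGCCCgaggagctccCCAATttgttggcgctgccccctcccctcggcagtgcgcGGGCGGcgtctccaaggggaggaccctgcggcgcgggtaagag
Col27a1: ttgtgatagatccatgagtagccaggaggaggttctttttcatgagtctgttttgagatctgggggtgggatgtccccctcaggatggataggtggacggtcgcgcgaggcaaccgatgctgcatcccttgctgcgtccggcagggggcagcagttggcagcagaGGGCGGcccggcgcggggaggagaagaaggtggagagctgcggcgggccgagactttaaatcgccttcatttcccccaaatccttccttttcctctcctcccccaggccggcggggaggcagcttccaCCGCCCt
Col10a1: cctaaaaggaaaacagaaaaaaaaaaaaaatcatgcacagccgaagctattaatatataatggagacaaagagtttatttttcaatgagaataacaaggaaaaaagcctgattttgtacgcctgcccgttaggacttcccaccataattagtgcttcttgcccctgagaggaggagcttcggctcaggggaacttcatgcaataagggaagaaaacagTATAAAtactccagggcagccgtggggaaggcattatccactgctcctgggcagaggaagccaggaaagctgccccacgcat
Col15a1: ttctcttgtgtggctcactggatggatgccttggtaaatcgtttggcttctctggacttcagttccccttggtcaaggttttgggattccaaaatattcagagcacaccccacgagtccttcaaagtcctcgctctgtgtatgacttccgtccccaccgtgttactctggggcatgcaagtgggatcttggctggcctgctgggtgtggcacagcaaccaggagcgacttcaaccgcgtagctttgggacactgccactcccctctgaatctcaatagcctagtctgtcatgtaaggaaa
Col5a3: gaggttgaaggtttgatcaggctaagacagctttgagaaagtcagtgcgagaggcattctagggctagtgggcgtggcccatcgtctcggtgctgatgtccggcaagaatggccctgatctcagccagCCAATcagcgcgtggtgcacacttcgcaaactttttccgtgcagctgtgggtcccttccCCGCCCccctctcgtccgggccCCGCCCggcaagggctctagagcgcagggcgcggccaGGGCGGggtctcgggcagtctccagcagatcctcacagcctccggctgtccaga
Col11a2: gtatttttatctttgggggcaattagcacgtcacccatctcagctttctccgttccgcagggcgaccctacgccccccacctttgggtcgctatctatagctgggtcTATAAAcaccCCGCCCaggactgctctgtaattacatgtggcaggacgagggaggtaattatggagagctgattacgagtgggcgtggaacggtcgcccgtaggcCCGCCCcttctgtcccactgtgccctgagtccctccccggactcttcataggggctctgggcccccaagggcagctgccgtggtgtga

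RefSeq promoters were matched for 35 of the 44 genes, with 38 entries. The GC box was found in 60.5% of these entries and in 35.7% of all 32851 promoters of the table, the CCAAT box in 34.2% and 37.4%, and the TATA box in 13.2% and 13.6%. Of the sequences shown, the Col10a1 window holds a TATA box and no GC box. The windows of Col4a1 and Col4a2 hold GC and CCAAT boxes, that of Col27a1 holds GC boxes alone and that of Col15a1 holds none of the 3 motifs. The windows of Col27a1 and Col15a1 lie inside the genes, which begin at chr4:63214009 and chr4:47207655. The sequence before those starts is not shown. A match describes these letters and is not a bound site.

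Levels per length ran over 4 orders of magnitude, from Col3a1 at a mean of 182 CPM per kb of transcript over the 12 libraries (range 121 to 312) to Col19a1 at 0.00690. Col3a1, the fibrillar collagen that pairs with type I collagen, was followed by the basement membrane chains Col4a1 (mean 108, range 57.3 to 157) and Col4a2 (77.3, 39.1 to 110). Next came the type I chains Col1a2 (71.9, 47.3 to 115) and Col1a1 (56.5, 36.5 to 105), the type VI chains Col6a1 (51.9, 31.1 to 78.4) and Col6a2 (46.4, 25 to 72.3), and the multiplexin Col15a1 (44.5, 25.1 to 71.8). Neighbours in this order of 8 had overlapping ranges. The other 36 genes had means of 34.1 CPM per kb or less.

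**Figure D1:**
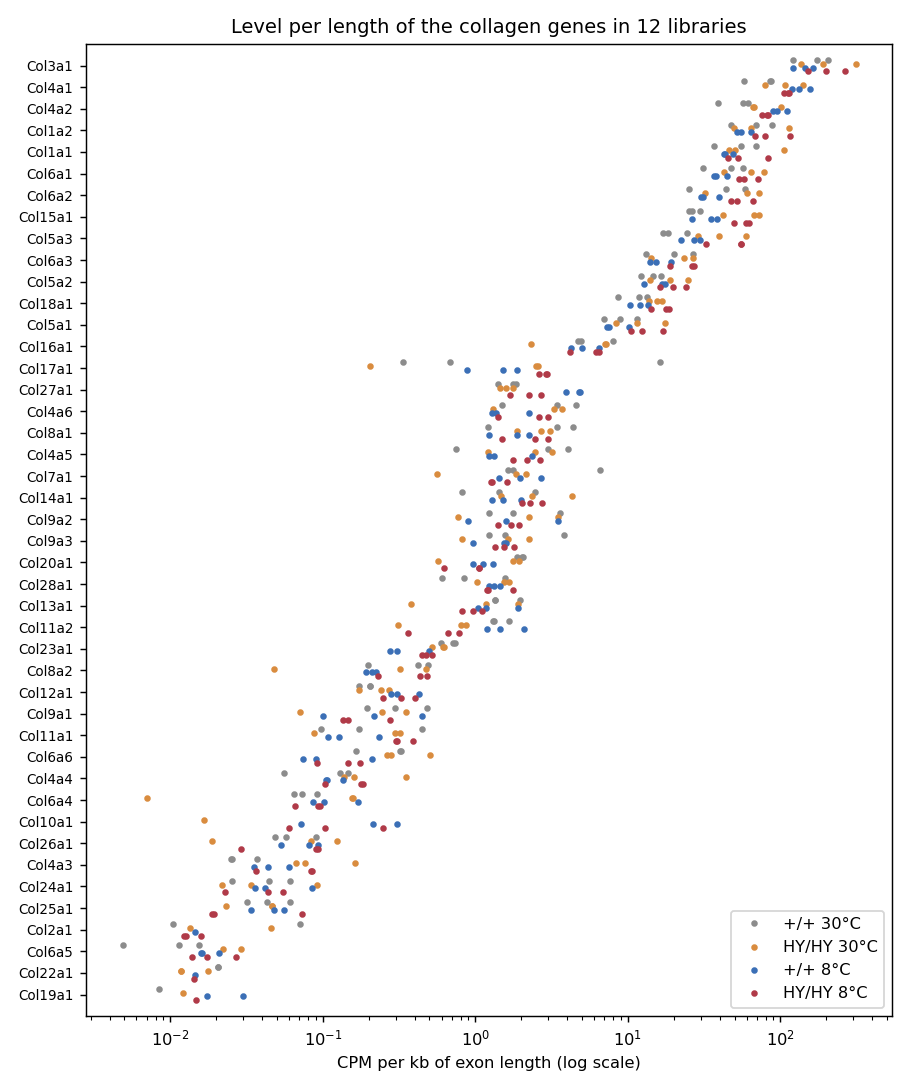
Level per length of each collagen gene in CPM per kb of transcript (log scale), one point per library and colours for the 4 groups, with libraries at 0 left out. Genes are ordered by their mean, from Col3a1 at 182 to Col19a1 at 0.00690.

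The filter on low counts left 7 of the 44 genes untested, namely Col2a1, Col6a5, Col19a1, Col22a1, Col24a1, Col25a1 and Col26a1. The other 37 entered each comparison. Calls needed an adjusted p below 0.05 over all 16540 genes tested (edgeR's quasi-likelihood test) together with a fold change over 1.5 or under 0.67, except that no fold limit was set for the interaction.

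The question of what cold does to collagen expression was asked first in wild-type mice. After 1 week at 8°C, 6 of the 37 genes were called against 30°C, 5 higher and 1 lower. Of all genes 17.3% were called, 10.3% higher and 6.93% lower, so the share of collagen genes, 16.2%, was near the background. Scaled by library totals instead of TMM, 6 genes were called as well, 2 higher and 4 lower, of which 3 were shared (Col10a1, Col23a1 and Col27a1). The median log2 fold change was -0.17 over the 37 genes and -0.07 over all genes. The 6 genes came from 5 classes: the fibrillar Col27a1, both major chains of type IV collagen, the FACIT Col12a1, the short-chain Col10a1 and the transmembrane Col23a1.

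Col27a1, a fibrillar collagen known from cartilage, was at 14.0, 10.8 and 13.4 CPM in the 3 wild-type libraries at 30°C and at 36.9, 29.9 and 36.6 CPM at 8°C. The groups did not overlap. It rose 2.72-fold (log2 1.44, SE 0.18, adjusted p = 0.000194 by edgeR). Its call held in all 21 alternatives run, which left out each library in turn or changed the scaling, filter, strand, test or block.

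Col4a1 and Col4a2, whose chains assemble into the main basement membrane trimer, rose together. Col4a1 was, at 30°C, at 567, 379 and 574 CPM in wild-type mice, and at 8°C at 1040, 785 and 878. It rose 1.78-fold (log2 0.83, SE 0.22, adjusted p = 0.0194 by edgeR). Each library at 8°C was above each library at 30°C.

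For Col4a2 the wild-type libraries held 368, 252 and 398 CPM at 30°C and 710, 580 and 609 CPM at 8°C. It rose 1.86-fold (log2 0.90, SE 0.20, adjusted p = 0.00892 by edgeR). Scaling by library totals instead of TMM shifts the median of all genes in this comparison from -0.07 to -0.41 on the log2 scale, and under it both calls were lost (log2 0.51 and 0.58, adjusted p = 0.0968 for Col4a1 and 0.0593 for Col4a2). The call of Col4a1 was also lost without wild-type 30°C replicate 2 (adjusted p = 0.0752), wild-type 8°C replicate 1 (0.0699) or wild-type 8°C replicate 3 (0.0512), while that of Col4a2 held without any one library.

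The other 4 type IV chains did not pass. They build the specialised basement membranes of kidney, muscle and skin, and in wild-type mice their log2 fold changes by cold were 0.67 for Col4a3, 0.09 for Col4a4, -0.67 for Col4a5 and -0.95 for Col4a6. As a share of a library's collagen counts, type IV collagen took 22.2% to 25.5% at 30°C and 34.3% to 41.1% at 8°C in wild-type mice. In HY/HY mice it took 23.9% to 27.9% at 30°C and 22.1% to 27.6% at 8°C, so the wild-type 8°C libraries were the highest of the 12. Fibrillar collagens of wild-type mice took 48.4% to 54.0% at 30°C and 40.2% to 45.0% at 8°C.

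**Figure D2:**
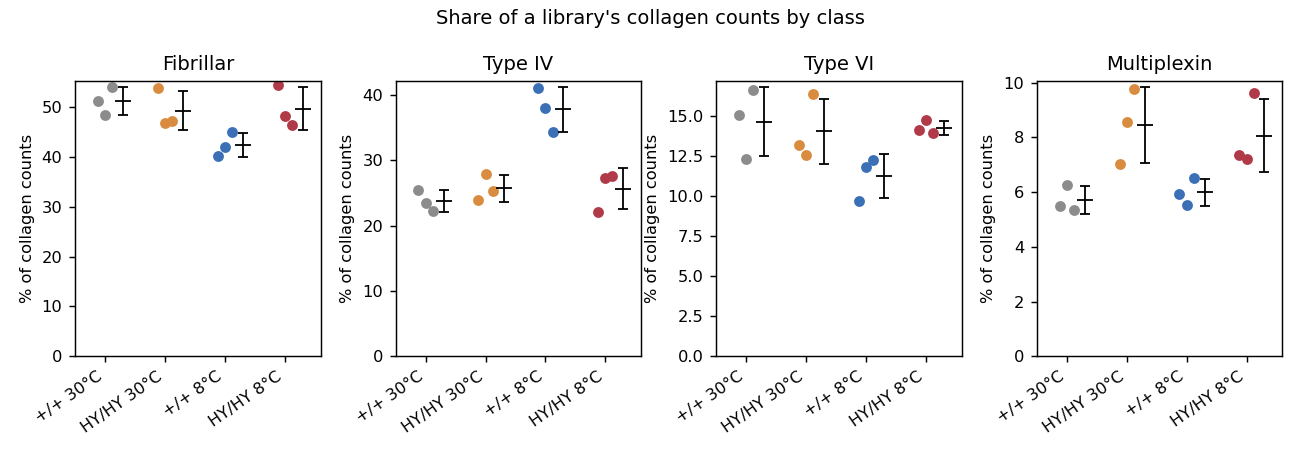
Share of a library's collagen counts, in percent, taken by fibrillar, type IV, type VI and multiplexin collagens. Points are libraries and the bar beside them is the mean with its SD (n = 3); the type IV share of wild-type mice at 8°C, 34.3% to 41.1%, lies above that of the other 3 groups.

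Several endothelial markers rose in the cold in wild-type mice, as Col4a1 and Col4a2 did. Of 8 markers, all tested, 4 were called higher there (Pecam1, Kdr, Cdh5 and Emcn), beside 10.3% of all genes. The others were not called, and Vwf had a mean of 49.3 CPM at 30°C and 48.8 at 8°C. None of the 8 markers was called by cold in HY/HY mice, beside 0.181% of all genes called higher. In wild-type mice their summed level was 598 to 925 CPM at 30°C and 1052 to 1373 at 8°C, and in HY/HY mice it was 846 to 987 at 30°C and 817 to 1036 at 8°C. No marker was at 0. Their part in the type IV result was not tested.

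Col10a1, the short-chain collagen of hypertrophic cartilage, had 0 counts in all 3 wild-type libraries at 30°C and 9, 3 and 15 counts at 8°C, which correspond to 0.669, 0.226 and 0.962 CPM. Against a floor of 3 counts over the 30°C group it was at least 14.6-fold higher at 8°C (adjusted p = 0.00519 by edgeR). With 1 count in the HY/HY libraries at 30°C and 19 counts at 8°C, its ratio there was 32.2 (95% exact interval 5.11 to 1337, counting error only). The adjusted p in HY/HY mice was 0.132 by edgeR, so the rise was present in the counts of both genotypes and called in one. Col10a1 held 0 or 1 count in each 30°C library and passed the filter on low counts only through 8°C libraries. Its p-values for cold therefore add no support beyond those counts.

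Col12a1, a FACIT that decorates type I fibrils in tissues under tension, was at 1.99, 2.35 and 2.34 CPM at 30°C in wild-type mice and at 4.90, 3.55 and 3.21 at 8°C. It rose 1.74-fold (log2 0.80, SE 0.26, adjusted p = 0.0409 by edgeR). The call was lost in 10 of 21 alternatives, with adjusted p up to 0.239 under library totals. In 7 of these 1 library was left out, which was any one of the 6 wild-type libraries or HY/HY 8°C replicate 1, with adjusted p from 0.0530 to 0.147.

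Col23a1, a transmembrane collagen, was the single member called lower. It was at 3.35, 4.15 and 4.04 CPM in wild-type mice at 30°C and at 1.56, 1.74 and 2.82 at 8°C, and the groups did not overlap. It fell by 0.91 on the log2 scale (SE 0.24, adjusted p = 0.0174 by edgeR). The call was lost without wild-type 30°C replicate 2 (adjusted p = 0.0597) or wild-type 8°C replicate 1 (0.0697) or 2 (0.0744). Without wild-type 30°C replicate 2, which has the muscle and epidermal markers, 3 of the 6 calls remained, those of Col10a1, Col27a1 and Col4a2.

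**Figure D3:**
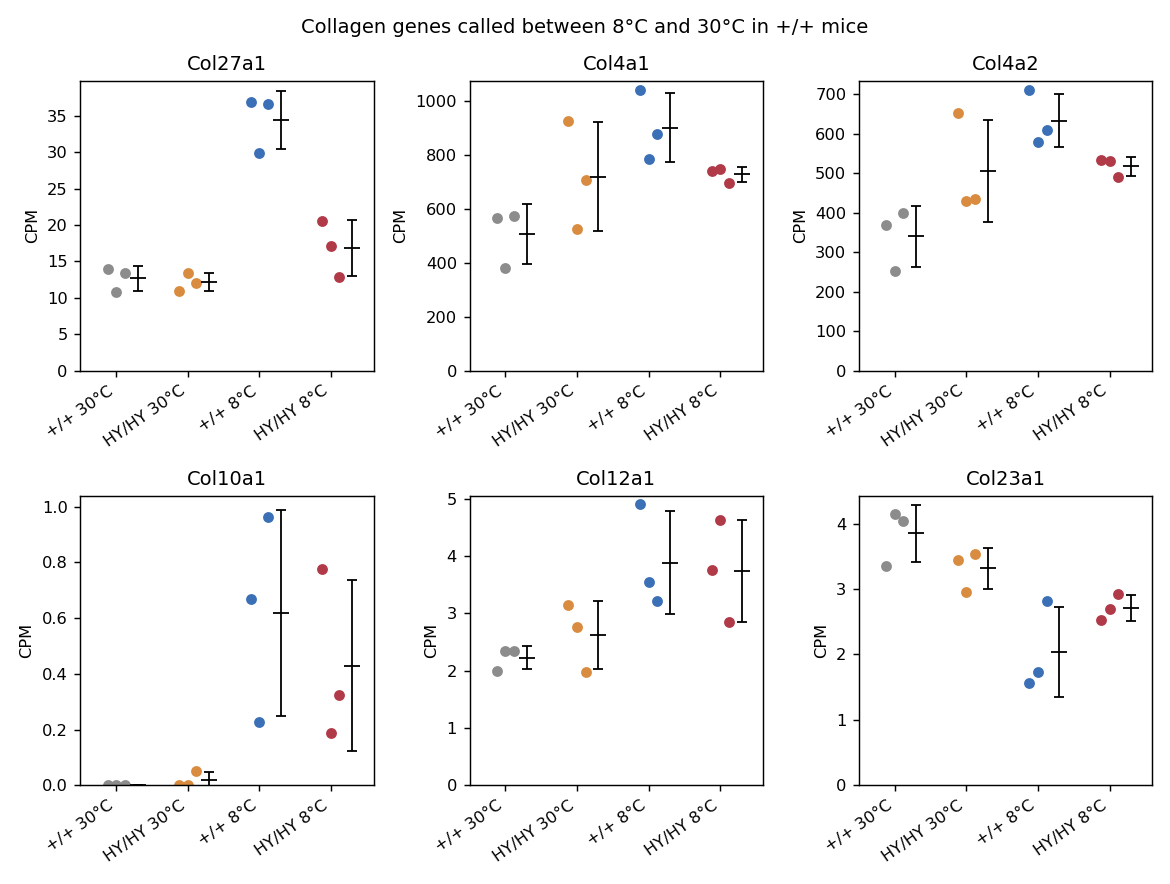
CPM of the 6 collagen genes called between 8°C and 30°C in wild-type mice, with points for the 3 libraries of each group and the mean with SD beside them. Col27a1 sits at 29.9 to 36.9 CPM in wild-type mice at 8°C and at 10.8 to 20.6 in the other 3 groups.

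The major fibrillar chains did not pass the test in the cold. Col3a1 was at 973, 675 and 1145 CPM in wild-type mice at 30°C and at 809, 672 and 915 at 8°C. Col1a1 was at 325, 216 and 413 CPM and then at 252, 256 and 288, and Col1a2 at 368, 253 and 471 and then at 293, 276 and 340. The groups overlapped for each gene. Their log2 fold changes were -0.22 for Col3a1 (SE 0.31), -0.26 for Col1a1 (SE 0.33) and -0.26 for Col1a2 (SE 0.31). Each standard error was larger than the change it belongs to.

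The type VI chains, which bind cells to the matrix, behaved likewise. Col6a1 was at 195, 127 and 233 CPM in wild-type mice at 30°C and at 156, 150 and 183 at 8°C, and Col6a2 at 203, 116 and 272 and then at 139, 145 and 184. Neither passed the test, with log2 fold changes of -0.18 and -0.34. Type VI collagen took 12.3% to 16.6% of collagen counts at 30°C and 9.70% to 12.3% at 8°C in these mice.

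In HY/HY mice no collagen gene was called by cold. The background there was 0.248% of all genes, 0.181% higher and 0.0665% lower. By edgeR, 3 of the 37 genes had an unadjusted p under 0.05, and DESeq2 called none. The median log2 fold change was -0.03 over the 37 genes and -0.01 over all genes.

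Col27a1 was at 11.0, 13.4 and 12.1 CPM in HY/HY mice at 30°C and at 20.6, 17.2 and 12.8 at 8°C, and these groups overlapped. Its log2 fold change was 0.48 (SE 0.18, adjusted p = 0.246 by edgeR). For Col4a1 the levels were 927, 523 and 706 CPM and then 741, 747 and 695, a log2 fold change of 0.02 (SE 0.22). Col4a2 was at 653, 429 and 433 CPM and then at 533, 530 and 489, with a log2 fold change of 0.03 (SE 0.20).

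Whether the cold response differed between genotypes is answered by the interaction, which was called for no collagen gene against 2.24% of all genes. Of the 37, 3 had an unadjusted p under 0.05, Col27a1, Col4a1 and Col4a2. The cold response of Col27a1 was lower in HY/HY mice by a log2 difference of -0.97 (SE 0.25, adjusted p = 0.0703 by edgeR). The differences were -0.86 for Col4a2 (SE 0.29, adjusted p = 0.170) and -0.81 for Col4a1 (SE 0.31, adjusted p = 0.238), both by edgeR. With DESeq2, 2 genes passed, Col27a1 and Col4a2, so a difference in response between genotypes depended on the tool. At 30°C Col4a1 and Col4a2 were higher in HY/HY than in wild-type mice. The log2 fold changes were 0.50 (SE 0.22, adjusted p = 0.247 by edgeR) and 0.57 (SE 0.20, adjusted p = 0.169). At 8°C both were lower, with -0.31 (SE 0.22, adjusted p = 0.452 by edgeR) and -0.29 (SE 0.20, adjusted p = 0.440). Neither gene was called by genotype at either temperature.

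**Figure D4:**
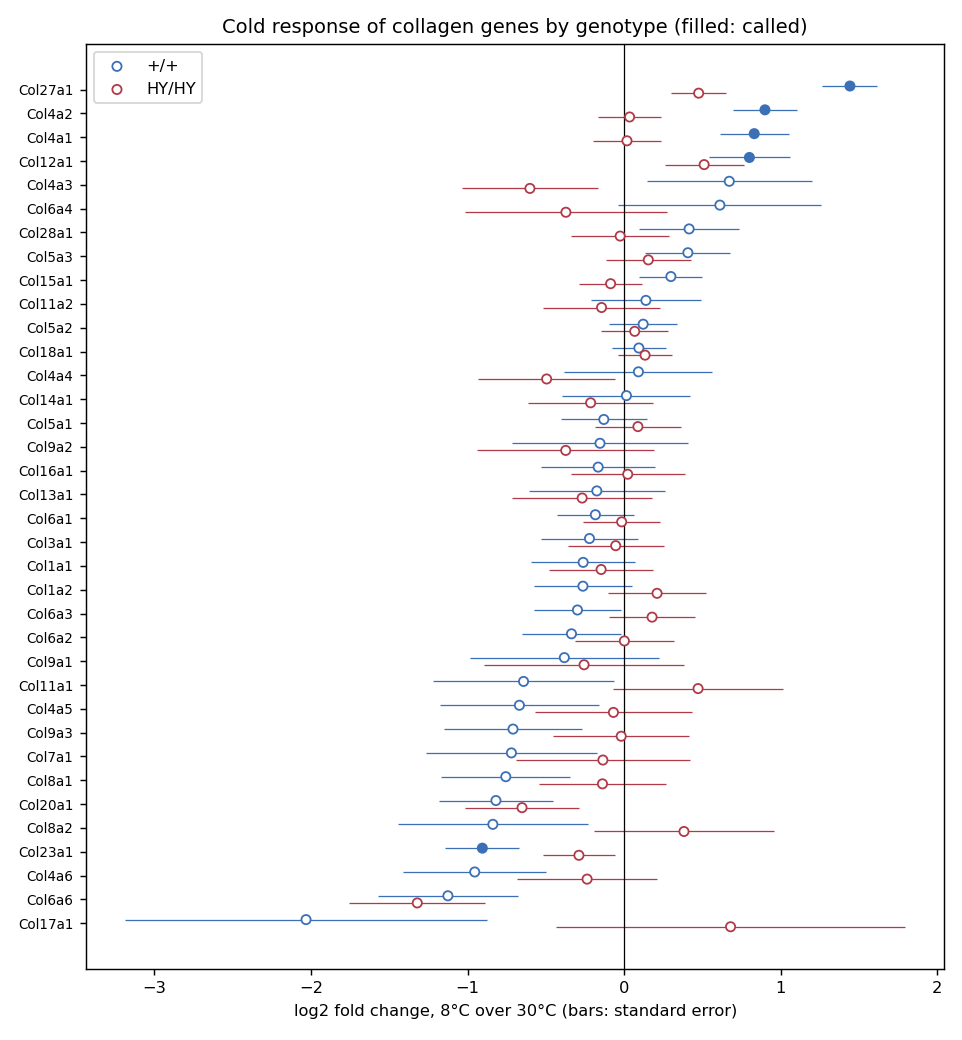
Log2 fold change of 8°C over 30°C for each collagen gene tested, with its standard error, in wild-type and HY/HY mice, filled where called. Col10a1 is left out for its counts of 0, and Col27a1, Col4a1 and Col4a2 lie at 1.44, 0.83 and 0.90 in wild-type mice and at 0.48, 0.02 and 0.03 in HY/HY mice.

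Averaged over genotypes, 5 collagen genes were called by cold, 3 higher and 2 lower, beside 12.3% of all genes (7.29% higher and 4.96% lower), and with library totals the split was 2 higher and 3 lower. Col27a1 (log2 0.96, SE 0.12, adjusted p = 0.000339 by edgeR), Col12a1 (0.66, SE 0.18, adjusted p = 0.0217) and Col10a1 (adjusted p = 0.00166) were higher, and Col23a1 was lower (-0.60, SE 0.16, adjusted p = 0.0221). The limit given above for the p-values of Col10a1 holds here too. The call of Col12a1 was lost in 4 of 20 alternatives, under library totals (adjusted p = 0.145) and without HY/HY 30°C replicate 3, wild-type 8°C replicate 1 or HY/HY 8°C replicate 2. That of Col23a1 was lost in 7 of 20, with DESeq2, without both libraries that stand apart, and without wild-type 30°C replicate 2, HY/HY 30°C replicate 3, wild-type 8°C replicate 1 or 2, or HY/HY 8°C replicate 1 (adjusted p up to 0.0602). Col6a6, a type VI chain, was called in this comparison alone, with a log2 fold change of -1.22 (SE 0.31, adjusted p = 0.0153 by edgeR). In wild-type mice it was called by cold under library totals, with the replicate block, or without wild-type 30°C replicate 3 or 8°C replicate 1. It was at 2.27, 2.31 and 1.17 CPM in wild-type and 3.56, 2.0 and 1.87 in HY/HY mice at 30°C, and at 1.49, 0.528 and 0.642 and at 1.04, 1.25 and 0.650 at 8°C. These are 7 to 92 counts per library.

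The effect of the HY allele was then compared at each temperature. At 8°C, 3 of the 37 genes were called between HY/HY and wild-type mice, 1 higher and 2 lower, beside 5.93% of all genes (1.51% higher and 4.42% lower). Library totals gave 2 higher and 1 lower there. At 30°C 1 gene was called, higher, beside 1.00% of all genes (0.562% higher and 0.441% lower). The median log2 fold change of the 37 genes was 0.40 at 8°C and 0.24 at 30°C, against 0.01 and -0.01 over all genes. Of the 37, 25 were above 0 at 8°C and 21 at 30°C, beside 51.3% and 49.0% of all genes.

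Col15a1, the multiplexin that sits at the interface of basement membrane and fibrils, was higher in HY/HY mice at both temperatures. At 30°C it was at 136, 130 and 154 CPM in wild-type and 371, 219 and 349 CPM in HY/HY mice, and the groups did not overlap (2.23-fold, log2 1.16, SE 0.20, adjusted p = 0.0309 by edgeR). At 8°C it was at 181, 137 and 199 CPM in wild-type and 320, 257 and 308 CPM in HY/HY mice, again without overlap (1.71-fold, log2 0.78, SE 0.20, adjusted p = 0.0394 by edgeR). The call at 30°C was lost in 10 of 21 alternatives and that at 8°C in 7, with adjusted p up to 0.213 and 0.159.

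The call of Col15a1 at 30°C was lost when 1 of 7 libraries was left out: wild-type 30°C replicates 1 (adjusted p = 0.0860) and 2 (0.0938), HY/HY 30°C replicate 3 (0.0644), the 3 wild-type libraries at 8°C (0.0516 to 0.0566) and HY/HY 8°C replicate 1 (0.0515). At 8°C the call was lost without any one of the 6 libraries compared or without wild-type 30°C replicate 1 (adjusted p 0.0526 to 0.159). Its log2 fold change stayed between 1.02 and 1.36 at 30°C and between 0.63 and 0.91 at 8°C. Col18a1, the other multiplexin and the source of endostatin, was higher by log2 0.45 (SE 0.17, adjusted p = 0.196) at 30°C and 0.49 (SE 0.17, adjusted p = 0.113) at 8°C by edgeR, and was not called.

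Col27a1 was lower in HY/HY mice at 8°C, at 20.6, 17.2 and 12.8 CPM against 36.9, 29.9 and 36.6 in wild-type mice. The log2 fold change was -1.03 (SE 0.17, adjusted p = 0.00611 by edgeR), and the call held in all 21 alternatives. At 30°C the genotypes overlapped, with a log2 fold change of -0.06 (SE 0.17). The test of the difference between these genotype effects is the interaction given above (adjusted p = 0.0703 by edgeR).

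Col11a2, a chain of the minor fibrillar collagen XI, was at 12.6, 8.75 and 7.25 CPM in wild-type and 4.01, 4.69 and 2.19 CPM in HY/HY mice at 8°C. It fell by 1.38 on the log2 scale (SE 0.37, adjusted p = 0.0454 by edgeR). At 30°C it was at 8.02, 9.99 and 7.92 CPM and at 4.88, 5.27 and 1.87 CPM, a log2 fold change of -1.10 (SE 0.36, adjusted p = 0.140). All 6 HY/HY libraries lay below all 6 wild-type libraries. The call at 8°C was lost when any one of 9 libraries was left out, these being all of the wild-type libraries and the 3 HY/HY libraries at 8°C, with adjusted p from 0.0530 to 0.163.

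Markers of mammary epithelium (10 of 10 detected, none at 0) were summed beside Col11a2 and the epithelial collagens Col7a1 and Col17a1. The sum was 3474 to 5780 CPM in wild-type mice at 30°C, 2140 to 2436 at 8°C, 904 to 2370 in HY/HY mice at 30°C and 1309 to 2038 at 8°C. Between genotypes it was lower in HY/HY mice at both temperatures, as Col11a2 was, but between temperatures in wild-type mice it was lower at 8°C while the levels of Col11a2 overlapped. The keratins Krt8, Krt18 and Krt19 carried most of it. All 3 were called lower in HY/HY mice averaged over temperatures, beside 2.27% of all genes. Krt19 was also called lower at 30°C, beside 0.441%, and no marker of the 10 was called at 8°C. The basal keratin Krt14 was at 12.8 to 27.9 CPM in wild-type and 33.0 to 39.3 CPM in HY/HY mice at 8°C, the opposite order to the sum, and was not called. Col17a1, which anchors basal keratinocytes, was at 90.9 CPM in wild-type 30°C replicate 2 and between 1.14 and 16.6 in the other 11 libraries, and at 8°C its HY/HY libraries lay above its wild-type libraries. Col7a1, the anchoring fibril collagen, was at 60.7 CPM there and between 5.15 and 25 elsewhere. Neither gene was called in any of the 7 comparisons, and the part of epithelium in these values was not tested. When wild-type 30°C replicate 2 and HY/HY 30°C replicate 3 were both left out, a choice made after the data were seen, Col17a1 was called in 5 of them.

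Averaged over temperatures, 3 collagen genes were called by genotype, 2 higher and 1 lower in HY/HY mice, beside 4.40% of all genes (2.13% higher and 2.27% lower). Col15a1 was 1.96-fold higher (log2 0.97, SE 0.14, adjusted p = 0.00577 by edgeR), Col5a3 1.96-fold higher (log2 0.97, SE 0.19, adjusted p = 0.0147) and Col11a2 lower by a log2 fold change of -1.24 (SE 0.26, adjusted p = 0.0176). Each of these 3 calls held in all 20 alternatives. Col18a1 (log2 0.47, adjusted p = 0.0378) and Col27a1 (log2 -0.54, adjusted p = 0.0236), both by edgeR, passed the limit on p and not the fold limit.

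Col5a3, a chain of the type V collagen that sets fibril diameter, was at 104, 112 and 149 CPM in wild-type and 364, 175 and 244 CPM in HY/HY mice at 30°C. In the cold these levels were 165, 137 and 183 CPM and 335, 198 and 338 CPM. The genotypes did not overlap at either temperature. Its log2 fold change was 1.10 at 30°C (SE 0.27, adjusted p = 0.0719) and 0.85 at 8°C (SE 0.27, adjusted p = 0.0850) by edgeR, so by this test it passed in the averaged comparison alone. DESeq2 and the fit with the replicate block called it higher at each temperature as well.

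**Figure D5:**
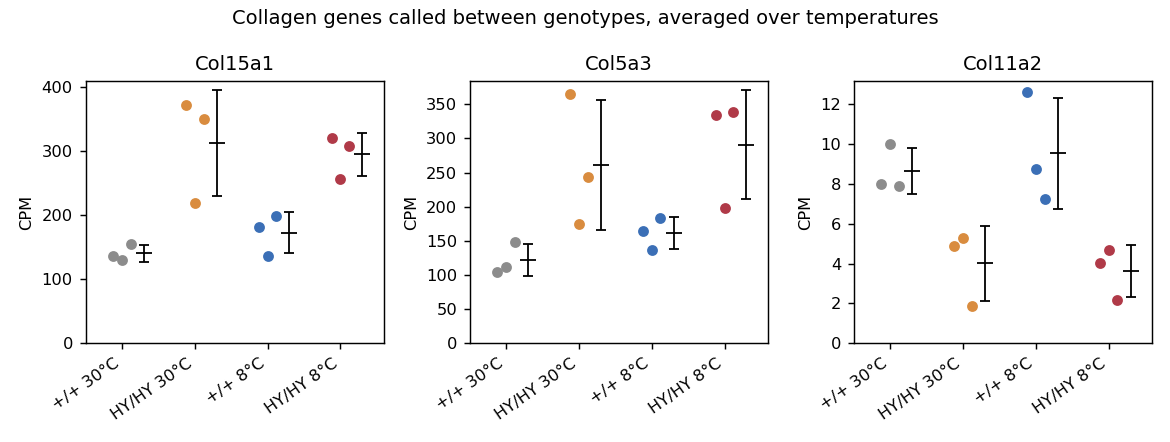
CPM of the 3 collagen genes called between genotypes averaged over temperatures, with points for the 3 libraries of each group and the mean with SD beside them. Col15a1 and Col5a3 are higher and Col11a2 is lower in each HY/HY group than in the wild-type group at the same temperature, without overlap.

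The abundant fibrillar and type VI chains were not called between genotypes. At 8°C Col3a1 was at 1468, 1111 and 844 CPM in HY/HY mice (log2 0.51 against wild-type, SE 0.31), Col1a1 at 494, 315 and 269 (log2 0.44, SE 0.33) and Col1a2 at 615, 424 and 363 (log2 0.62, SE 0.31). At 30°C Col3a1 was at 1735, 756 and 1062 CPM, Col1a1 at 624, 298 and 273, and Col1a2 at 607, 264 and 341 in HY/HY mice. HY/HY 30°C replicate 1 was the highest of its group for all 3 genes. Col6a1 was at 321, 174 and 262 CPM in HY/HY mice at 30°C and at 293, 235 and 221 at 8°C, and Col6a2 at 337, 149 and 280 and at 306, 240 and 220. When the comparison at 8°C was fitted on its own 6 libraries, 11 collagen genes were called, among them Col1a2, Col5a1, Col6a1, Col6a2 and Col6a3. The share of all genes called in that fit is not given here. Calls also rose in it among the genes that fold, process, bind and degrade collagen, described below. Of these, 17 of 75 tested were called, against 6 of 77 in the main fit, so the rise in calls was not confined to collagen genes. The filter, the scaling and the spread all come from those 6 libraries in that fit, and which of them moved the count was not tested.

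Markers of several cell types also differed between genotypes. Of all genes, 1.51% were called higher and 4.42% lower in HY/HY mice at 8°C. Of 10 fibroblast and progenitor markers, all tested, 2 were higher in HY/HY mice at 8°C (Dcn and Dpt), and the sum of the 10 was 904 to 1076 CPM in wild-type and 1375 to 1888 CPM in HY/HY mice. Dcn and Dpt made up most of that sum, and 4 of the 10 had a log2 fold change below 0, among them Cd34 at 87.7 to 132 CPM in wild-type and 63.7 to 87.9 CPM in HY/HY mice (log2 -0.52, adjusted p = 0.207 by edgeR). At 30°C the sums were 1116 to 1316 and 1330 to 2059 CPM. Of 8 macrophage markers 3 were higher at 8°C (Mrc1, Csf1r and C1qc), with sums of 206 to 214 and 309 to 439 CPM at 8°C and of 254 to 271 and 280 to 494 CPM at 30°C. Mural markers summed to 609 to 814 CPM in wild-type and 950 to 1110 CPM in HY/HY mice at 30°C and overlapped at 8°C. Schwann cell markers summed to 214 to 291 and 389 to 415 CPM at 30°C, with overlap at 8°C. Of these, Pmp22 was at 118 to 133 CPM in wild-type and 188 to 334 CPM in HY/HY mice at 30°C, and the others overlapped. S100b was called lower in HY/HY mice at 8°C, at 4.71 to 5.31 CPM against 29.4 to 35.2 in wild-type mice. No single marker of these lists was called at 30°C. White adipocyte markers overlapped at 30°C and at 8°C summed to 29838 to 37175 CPM in wild-type and 37387 to 50596 CPM in HY/HY mice, with Lep and Retn called higher.

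No marker of these 5 lists was at 0, and their part in the collagen differences was not tested.

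The proportion of partner chains was compared per length. Col4a1 stood to Col4a2 at 1.19 to 1.59 over the 12 libraries and Col6a1 to Col6a2 at 0.973 to 1.33, with overlap between genotypes at each temperature and between temperatures in each genotype. Col1a1 to Col1a2 ranged from 0.668 to 1.02, and at 8°C it was 0.764 to 0.834 in wild-type and 0.668 to 0.725 in HY/HY mice, without overlap. Col5a1 to Col5a2 ranged from 0.446 to 0.707, and at 8°C it was 0.446 to 0.580 in wild-type and 0.622 to 0.702 in HY/HY mice, again without overlap. Col8a1 to Col8a2 was at 64.0 in HY/HY 30°C replicate 3 and between 3.13 and 10.7 in the other libraries. In that replicate Col8a2 held only 4 counts (4 to 60 over the 12 libraries), so its ratio is not reliable. These ratios were not tested.

 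Deviations of log2 CPM from the group means were correlated over the 12 libraries for Col4a1 and Col4a2 (Pearson r = 0.92, Spearman rho = 0.94, both p = 0.00154 by exact permutation within groups, adjusted 0.00617 over 8 pairs). Without the 2 libraries farthest from the median, r was 0.91. For Col6a1 and Col6a2 r was 0.99 and rho 0.96 (both exact permutation p = 0.00154, adjusted 0.00617, r without 2 libraries 0.98). Of the other 6 pairs, Col1a1 and Col1a2, Col1a1 and Col3a1, Col5a1 and Col5a2, and Col7a1 and Col17a1 had r from 0.91 to 0.96 (adjusted exact permutation p 0.00617 to 0.0154). Among these, Col1a1 with Col3a1 (0.91) and Col7a1 with Col17a1 (0.96) are not chains of the same trimer. No background of other gene pairs was run, so a high r is not shown to be particular to partner chains. Col4a1 and Col15a1 did not pass (r = 0.71, rho = 0.58, adjusted exact permutation p = 0.0644 and 0.173, r without 2 libraries 0.53), nor did Col8a1 and Col8a2 (r = 0.12, rho = 0.13, adjusted exact permutation p = 0.714 and 0.711, r without 2 libraries -0.06).

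The genes that fold, trim, cross-link, bind and degrade collagen were followed in 5 lists of 84 genes, of which 77 were tested. By cold in wild-type mice 10 were called (13.0%, against 17.3% of all genes), 7 higher and 3 lower. Library totals turned this balance, with 2 higher and 15 lower. The count also moved when 1 library was left out, to 3 without wild-type 8°C replicate 3, 4 without replicate 2, 5 without replicate 1 and 6 without wild-type 30°C replicate 2. By cold in HY/HY mice 1 was called, higher (1.30%, against 0.248%), and 3 with the replicate number as a block, 2 higher and 1 lower.

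Between genotypes, 4 of the 77 were called at 30°C, 3 higher and 1 lower (5.19%, against 1.00% of all genes), and 6 at 8°C, 5 higher and 1 lower (7.79%, against 5.93%). The interaction called 1 (1.30%, against 2.24%). Cold averaged over genotypes called 3 higher and 1 lower (5.19%, against 12.3%), and with library totals 1 higher and 9 lower. Genotype averaged over temperatures called 8 higher and 1 lower (11.7%, against 4.40%). Of the 22 calls in the first 5 comparisons, 3 kept an adjusted p under 0.05 in every alternative run, those of Tmem38b and Loxl1 by cold in wild-type mice and of Antxr2 by genotype at 8°C. For the other 19 it reached between 0.0545 and 0.358, and all 4 calls by genotype at 30°C were lost in a fit of those 6 libraries alone.

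Among 19 folding and modification genes tested, 2 rose by cold in wild-type mice (10.5%, against 10.3% of all genes) and none fell. Tmem38b, an ion channel of the endoplasmic reticulum needed for normal collagen synthesis, was at 16.9, 14.2 and 18.3 CPM at 30°C and at 32.8, 34.0 and 38.5 at 8°C (log2 1.10, SE 0.15, adjusted p = 0.000372 by edgeR). In HY/HY mice it was at 16.9, 23.4 and 23.8 CPM and then at 20.3, 20.3 and 22.3. It was lower in HY/HY mice at 8°C (log2 -0.74, SE 0.15, adjusted p = 0.0120 by edgeR), and its interaction was called (log2 -1.12, SE 0.21, adjusted p = 0.0218). The glycosyltransferase Colgalt2 rose as well (log2 0.80, adjusted p = 0.0455 by edgeR).

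Of 13 processing and cross-linking genes tested, 2 rose by cold in wild-type mice (15.4%, against 10.3% of all genes). In HY/HY mice 1 rose (7.69%, against 0.181%). Loxl1, a lysyl oxidase that acts on elastin, was at 34.2, 38.7 and 45.8 CPM in wild-type mice at 30°C and at 78.6, 70.2 and 88.7 at 8°C (log2 1.00, SE 0.16, adjusted p = 0.00111 by edgeR). In HY/HY mice it was at 47.6, 32.7 and 46.0 CPM and at 85.9, 72.0 and 77.9 (log2 0.90, SE 0.16, adjusted p = 0.0431 by edgeR), so that it rose in both genotypes.

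Lox, the lysyl oxidase that cross-links fibrillar collagen, was at 17.4, 12.4 and 11.9 CPM in wild-type and 41.0, 36.5 and 31.2 CPM in HY/HY mice at 30°C (log2 1.38, SE 0.21, adjusted p = 0.0195 by edgeR). At 8°C it was at 25, 20.7 and 18.7 CPM and at 47.9, 28.1 and 40.4 CPM (log2 0.85, SE 0.21, adjusted p = 0.0298 by edgeR). Lox was thus higher in HY/HY mice at both temperatures without overlap. It also rose by cold in wild-type mice (log2 0.63, adjusted p = 0.0490), a call lost under library totals (adjusted p = 0.358).

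Of 19 basement membrane partners tested, none rose and 2 fell by cold in wild-type mice, beside 10.3% and 6.93% of all genes. The 2 were the laminin chain Lama5 (log2 -0.93, adjusted p = 0.0133 by edgeR) and Smoc2 (log2 -1.32, adjusted p = 0.0113). Nid1, the nidogen that joins laminin to type IV collagen, was higher in HY/HY mice at 8°C, at 387, 366 and 419 CPM against 239, 228 and 263 (log2 0.68, SE 0.18, adjusted p = 0.0369 by edgeR). At 30°C Lama4 was higher (log2 0.66, adjusted p = 0.0451 by edgeR) and Lama5 lower (log2 -1.25, adjusted p = 0.0357) in HY/HY mice. Among those not called, Sparc, which binds collagen, went from 934 to 1538 CPM at 30°C to 1771 to 1966 CPM at 8°C in wild-type mice (log2 0.51, adjusted p = 0.0936 by edgeR). Hspg2, the basement membrane proteoglycan perlecan, was at 238 to 411 CPM and then at 424 to 563 CPM (log2 0.55, adjusted p = 0.0641 by edgeR). The groups did not overlap for either gene, and no test set the partners against the type IV chains.

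Of 11 receptors tested, 1 rose and 1 fell by cold in wild-type mice, beside 10.3% and 6.93% of all genes. Itga1, the integrin chain that binds type IV collagen, rose (log2 0.62, adjusted p = 0.0274 by edgeR), and the discoidin receptor Ddr1 fell (log2 -0.78, adjusted p = 0.0207). Antxr2, a receptor for type VI collagen, was higher in HY/HY mice at both temperatures (log2 0.72, adjusted p = 0.0358 at 30°C and 0.73, adjusted p = 0.00974 at 8°C by edgeR). Lair1, an inhibitory collagen receptor of leukocytes, was higher at 8°C (log2 1.11, adjusted p = 0.0246 by edgeR). Of all genes 0.562% were called higher in HY/HY mice at 30°C and 1.51% at 8°C. Of 15 degradation genes tested, Mmp19 and Pepd rose by cold in wild-type mice (log2 0.73, adjusted p = 0.0316 and 0.70, adjusted p = 0.0328 by edgeR), beside 10.3% of all genes. The fibroblast protease Fap was higher in HY/HY mice at 8°C (log2 0.86, adjusted p = 0.0291 by edgeR).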

How the data were processed

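The deposited values are STAR counts of read pairs per gene, unnormalised and unfiltered, which the authors made from paired reads trimmed with fastp and aligned to mm10 (GENCODE M25 IDs). The FPKM values their methods name were not used. Counts of the sense strand were analysed with edgeR 4.0.16 in R 4.3.3: filterByExpr kept 16540 genes, TMM factors scaled the library sizes, and all 12 libraries entered 1 quasi-likelihood fit with a mean for each group. The p-values are two-sided and were adjusted by Benjamini and Hochberg over all genes kept. The 4 entries that name no gene stayed out of library sizes. Length is that of the longest protein-coding transcript of an older annotation (GENCODE M1), used for length alone. The fit was tested on simulated counts drawn independently for each library, without outlying libraries or shared deviations of same-numbered ones. The outcome is not given here. Same-numbered HY/HY libraries deviated together between temperatures (correlations over genes 0.112, 0.199 and 0.303), which the labels do not explain, and blocking called no collagen gene there either. In the other comparisons at least one pair was at 0.1 or below. DESeq2 1.42.0, other scalings, filters and strands, and leaving out each library were tried. The collagen genes named are those called in any comparison or among the 8 highest per length. Members and lists were chosen with earlier results of these data known. No protein sequence was analysed here.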

Additional observations from a re-analysis of the deposited data

Results flagged for a closer look

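The cold response of Tmem38b differed between genotypes by the interaction of temperature and genotype, with a log2 difference of -1.12 (SE 0.21, adjusted p = 0.0218 by edgeR). It rose in wild-type mice (log2 1.10) and lay between 16.9 and 23.8 CPM in all 6 HY/HY libraries. The call was lost when any one of 8 of the 12 libraries was left out, with adjusted p from 0.0506 to 0.0759. These were wild-type replicates 1 and 2 at 30°C and 2 and 3 at 8°C, HY/HY replicate 2 at 30°C and all 3 HY/HY replicates at 8°C. Groups of 3 libraries were not searched for single outlying libraries.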

How the results depend on the processing

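No collagen gene called reversed its direction under any alternative. Of 366 repeats of the single calls, 308 kept the call and 58 lost it. Those kept include all 19 repeats for Col10a1 by cold in wild-type mice and all 19 averaged over genotypes. These add no support, for the reason given with its counts. The 366 also include repeats without a library outside the comparison, and leave out fits in which a gene was not tested. Leaving out 1 library gave 3 to 8 called genes for cold in wild-type mice, 0 to 1 for cold in HY/HY mice, 0 to 2 for genotype at 30°C, 1 to 4 for genotype at 8°C, 3 to 6 for cold averaged over genotypes and 3 to 6 for genotype averaged over temperatures. For genotype at 30°C the count was 0 under library totals or with its own libraries only, 2 without a filter, 3 with DESeq2 or at an adjusted p under 0.1, and 4 with the replicate block, against 1. Blocking kept the other counts of collagen genes within 1.5 times, and every library correlated best with its own number only between the HY/HY groups (6 of 6; 2 to 4 of 6 in the other pairs of groups). For genotype at 8°C it was 11 with its own libraries only, against 3. The interaction gave 2 with DESeq2 and 1 at an adjusted p under 0.1, against 0. Cold averaged over genotypes gave 3 with at least 10 counts in every library, where Col10a1 and Col6a6 are not tested, against 5, and genotype averaged over temperatures gave 5 without a fold limit, against 3. An alternative chosen after the data were seen left out both 30°C libraries that stand apart by markers and gave 2 for cold in HY/HY mice and 7 for genotype averaged over temperatures. For the 77 genes of the collagen pathway lists, leaving out 1 library gave 3 to 12 called by cold in wild-type mice, 0 to 3 by cold in HY/HY mice, 0 to 3 by genotype at 30°C, 1 to 9 by genotype at 8°C, 0 to 2 for the interaction, 4 to 6 for cold averaged over genotypes and 5 to 13 for genotype averaged over temperatures. The replicate block gave 12, 3, 6, 12, 2, 4 and 13 in that order, against 10, 1, 4, 6, 1, 4 and 9, and a fit of its own libraries gave 17 by genotype at 8°C. Except where stated, the cause of these shifts was not tested. Low counts limit Col10a1, Col6a6, Col12a1 (35 to 81 counts per library), Col23a1 (21 to 115) and Col11a2 (27 to 277).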
